A study of Mus musculus with 10 samples.

Results

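The mRNAs of 8 integrin subunits were followed in RNA-seq of mouse osteocytes, namely Itgav, Itga5, Itga4 and Itga11, which encode α subunits, and Itgb1, Itgb3, Itgb5 and Itgb8, which encode β subunits. They were chosen by name, as the subunits of the αV and α5 receptors and of neighboring β1 receptors, and each of the 8 was found once among the 22548 genes of the deposited table.

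Integrins are receptors of the cell surface, each built from 1 α and 1 β subunit, and they tie the extracellular matrix to the actin cytoskeleton. The αV subunit pairs with β1, β3, β5, β6 or β8 and binds matrix proteins that carry the arginine-glycine-aspartate motif, such as vitronectin, osteopontin and fibronectin. The α5 subunit pairs with β1 as the classical fibronectin receptor. In bone, osteocytes lie in a matrix of collagen and osteopontin, and αVβ3 is best known as the receptor by which osteoclasts seal onto bone.

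The study asked how osteocytes take part in the bone disease of multiple myeloma. All mice were male C57BL/6, listed as 8 weeks old, and no transgene or deletion is named for either group. The 5 MM mice had received Vk12598 cells, 1 transplantable murine myeloma line, by injection into the femur, and the 5 No MM mice were controls that the study's methods describe as injected with PBS. Osteocytes were obtained by repeated collagenase and EDTA digestion of bone pieces from which the marrow had been removed, with no sorting step named, and 1 stranded total RNA library per mouse was sequenced as paired reads of 76 bases. Elsewhere in the study an antibody to αV was applied to osteocyte cell lines, which makes the supply of αV and of its partners a question for these libraries.

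Between 31099174 and 39466332 reads were counted per library. The osteocyte label was checked against 10 markers, all detected, whose summed level was 373 to 2549 CPM (read counts relative to the TMM-scaled library size) in No MM and 409 to 1798 CPM in MM. Not all were well above the floor: Kera was at 0.0473 CPM in MM 8, where 3 reads corresponded to 0.0709 CPM. Fgf23 was at 0.775 to 5.06 CPM. Markers of 11 other cell types that a bone digest can hold were also detected, and for none of the 12 lists was a marker at 0 in every library or did the groups separate. The summed osteoblast markers reached 47471 CPM in MM 6, where Col1a1 and Col1a2 were at 18661 and 22961 CPM. Osteocytes are themselves of the osteoblast lineage, so that sum alone does not show another cell type. The neutrophil markers reached 33589 CPM, so the values below describe a digested bone preparation and not a pure cell type. In bulk RNA, fewer cells of a type and less RNA per cell cannot be told apart.

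The libraries of mice No MM 3 and No MM 4 stood apart, with 26.6% and 29.0% of counts on immunoglobulin genes against 0.637% to 3.86% in the other 8. These 2 libraries also had the highest summed B-lineage and plasma cell markers, at 6368 and 6704 CPM against 594 to 1225 CPM. Their osteoblast markers summed to 1813 to 3012 CPM against 12588 to 47471 CPM in the other 8, and their osteoclast markers to 831 to 1032 CPM against 2531 to 13862 CPM. The main values below are therefore given with and without these 2 mice.

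The promoters of 4 of the genes are shown because their products form 2 receptors, αVβ5 and α5β1, whose subunit mRNAs followed each other most closely across the mice (values below). The stretches are the 250 bases upstream of the transcription start, from the RefSeq annotation of GRCm38.p6, written 5′ to 3′ on the strand of the gene. They lie at chr2:83724147-83724396 on the plus strand for Itgav, chr16:33829415-33829664 on the plus strand for Itgb5, chr15:103366792-103367041 on the minus strand for Itga5 and chr8:128685404-128685653 on the plus strand for Itgb1. Capitals mark the GC box, GGGCGG or CCGCCC, the binding motif of Sp1-type factors.
Itgav: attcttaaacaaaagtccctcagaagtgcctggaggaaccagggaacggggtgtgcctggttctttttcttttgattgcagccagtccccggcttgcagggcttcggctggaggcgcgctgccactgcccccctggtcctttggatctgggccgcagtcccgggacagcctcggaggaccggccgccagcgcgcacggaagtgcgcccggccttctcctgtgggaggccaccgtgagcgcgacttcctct
Itgb5: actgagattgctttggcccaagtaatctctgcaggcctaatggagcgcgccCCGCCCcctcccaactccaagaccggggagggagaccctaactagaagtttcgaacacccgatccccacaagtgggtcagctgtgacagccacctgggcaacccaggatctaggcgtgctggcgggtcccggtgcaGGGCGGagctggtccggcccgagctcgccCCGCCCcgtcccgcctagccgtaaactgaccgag
Itga5: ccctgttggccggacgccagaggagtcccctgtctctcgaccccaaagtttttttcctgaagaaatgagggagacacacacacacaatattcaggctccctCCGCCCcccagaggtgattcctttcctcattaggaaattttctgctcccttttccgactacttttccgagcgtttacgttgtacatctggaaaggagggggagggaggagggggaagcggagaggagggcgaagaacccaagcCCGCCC
Itgb1: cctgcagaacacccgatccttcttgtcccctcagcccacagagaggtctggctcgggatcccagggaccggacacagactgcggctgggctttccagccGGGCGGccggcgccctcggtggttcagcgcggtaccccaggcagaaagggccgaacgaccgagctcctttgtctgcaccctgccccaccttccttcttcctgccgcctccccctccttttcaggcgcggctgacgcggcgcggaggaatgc

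A GC box was found in 32.7% of the 32851 promoters of that annotation, searched on both strands over the same length. Among the 7 subunit genes with an entry, Itgb5 held 3 GC boxes, Itga5 held 2, Itgb1 and Itga4 held 1 each, and Itgav, Itga11 and Itgb8 held 0. None of the 7 held a TATA box (TATAAA or TTTATA, in 12.4% of all promoters) or the E26 core (CCGGAAG or CTTCCGG, in 6.91%). The GC content of the 7 upstream stretches lay between 55.6% and 68.4%, and the median over all promoters was 52.4%. The αVβ5 pair thus differed in the GC box, with 0 for Itgav and 3 for Itgb5, while both genes of the α5β1 pair held it. A match of letters describes the window and is not a shown binding site. Itgb3 had no entry.

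Levels of different genes were compared as CPM per kilobase of the deposited gene length. On this scale Itgb1, the common β partner of α4, α5, α11 and αV, had the highest mean of 27 integrin subunits, at 110.2 ± 20.4 CPM per kilobase (SD, n = 10). Itgb3 and Itgb5, the β subunits of the vitronectin receptors, followed at rank 3 and rank 4 with levels of 56.1 ± 22.0 and 55.9 ± 17.7. The leukocyte subunit Itgb2 had a mean close to that of Itgb1, at 107 ± 48.1. The α subunits were scarcer per length, at 15.9 ± 4.37 for Itga4, 12.2 ± 1.99 for Itga5, 11.4 ± 3.86 for Itgav and 4.80 ± 2.60 for the collagen receptor subunit Itga11. Itgb8, whose product pairs with αV and activates latent TGF-β, was the lowest of the 27, at 0.124 ± 0.0756 CPM per kilobase, from 9 to 105 reads per library.

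**Figure D1:**
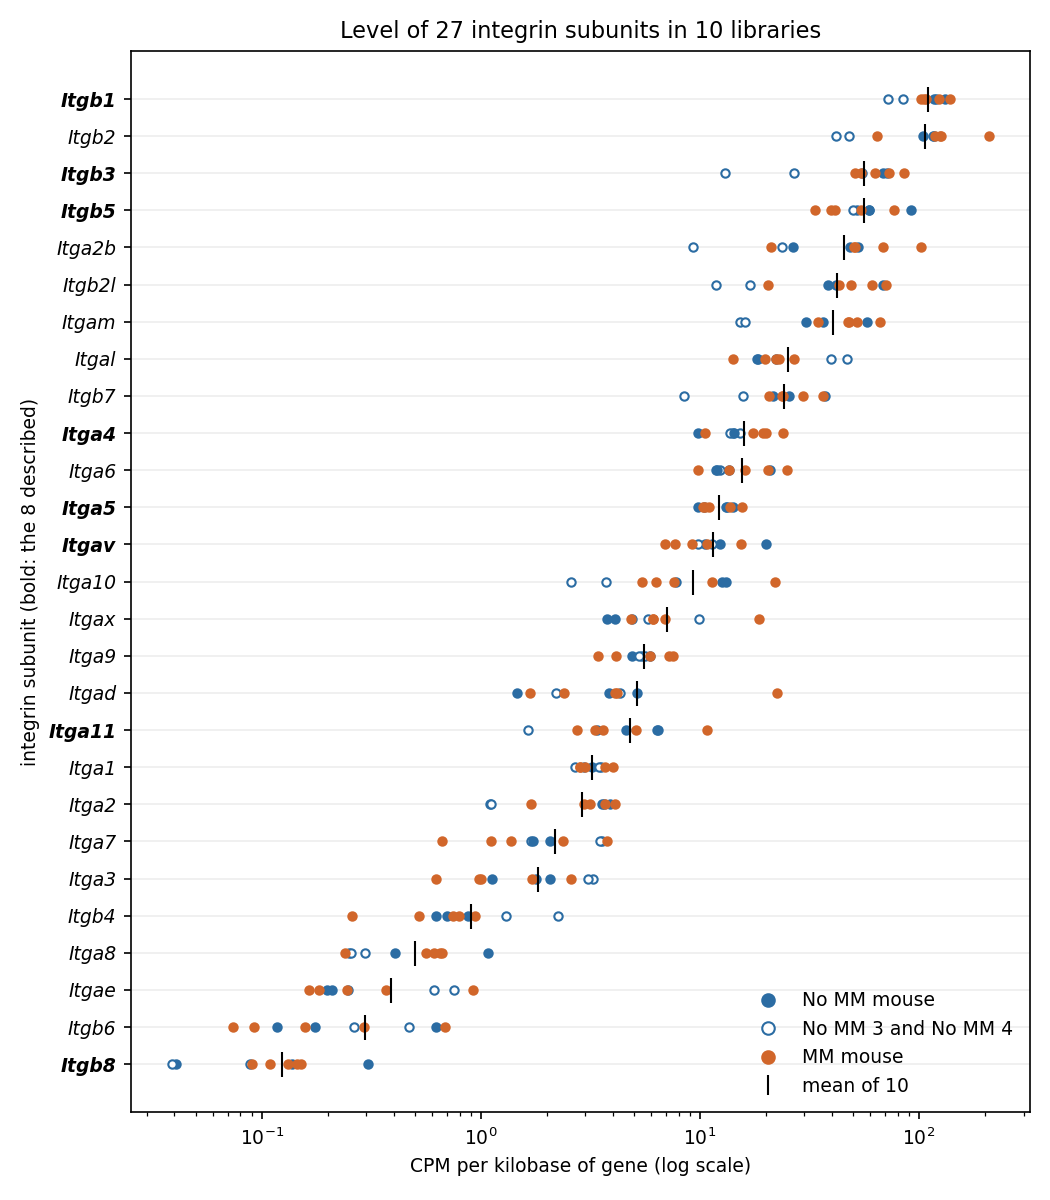
Level of 27 integrin subunits as CPM per kilobase of gene (log scale), with 1 point per library, open points for No MM 3 and No MM 4, and a bar at the mean of 10. The 8 subunits described are in bold, with Itgb1 at the top (mean 110.2), Itgb3 and Itgb5 side by side near 56, the α subunits between 4.80 and 15.9, and Itgb8 at the bottom (0.124).

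The order of levels was firm at some steps only. Itgb1 exceeded Itgb2 per length in 6 of 10 libraries, 5 of the No MM mice and 1 of the MM mice, and without No MM 3 and No MM 4, where Itgb2 was at 41.7 and 47.9, the mean of Itgb2 was the higher, at 122 against 118 CPM per kilobase. Itgb1 exceeded Itgb3 per length in 10 of 10 libraries, by 1.20 to 6.53 times, Itgb5 exceeded Itga4 in 10 of 10, Itgav exceeded Itga11 in 10 of 10 and Itga11 exceeded Itgb8 in 10 of 10. Itgb3 exceeded Itgb5 in 5 of 10 libraries, Itga4 exceeded Itga5 in 8 of 10, and Itga5 exceeded Itgav in 6 of 10, so these neighbors did not differ beyond their spread. The 5 libraries with more Itgb3 than Itgb5 were 1 of the No MM mice and 4 of the MM mice. No MM 3 and No MM 4 were among those with less, at 13.0 and 26.8 CPM per kilobase of Itgb3 against 59.4 and 49.7 of Itgb5. The same order of the 8 genes was found with GENCODE M21 exon lengths, on which Itgb1 had 103 and Itgav 7.50 CPM per kilobase.

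For MM against No MM, edgeR's quasi-likelihood test with Benjamini-Hochberg adjustment called 0 of the 8 subunits, and it called 0% of the 16186 genes tested. At an unadjusted p under 0.05 it also called 0 of the 8, against 14.1% of all tested genes, 3.81% higher and 10.3% lower in MM. For all 8 subunits the MM and No MM libraries overlapped, and the groups did not overlap for 1.41% of all genes. All 8 passed the filter on low counts. DESeq2 called 0 of the 8 at an adjusted p under 0.05, against 1.34% of genes. Without No MM 3 and No MM 4, edgeR called 0 of the 8 at an unadjusted p under 0.05, against 5.89% of genes. The fold changes of the 8 ran from -0.36 to 0.48 on the log2 scale, with a median of 0.08 beside -0.03 over all genes, and 6 of them were above 0. When No MM 3 and No MM 4 were left out, 1 of the 8 was above 0 and 7 were below, with a median of -0.15 beside -0.02.

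**Figure D2:**
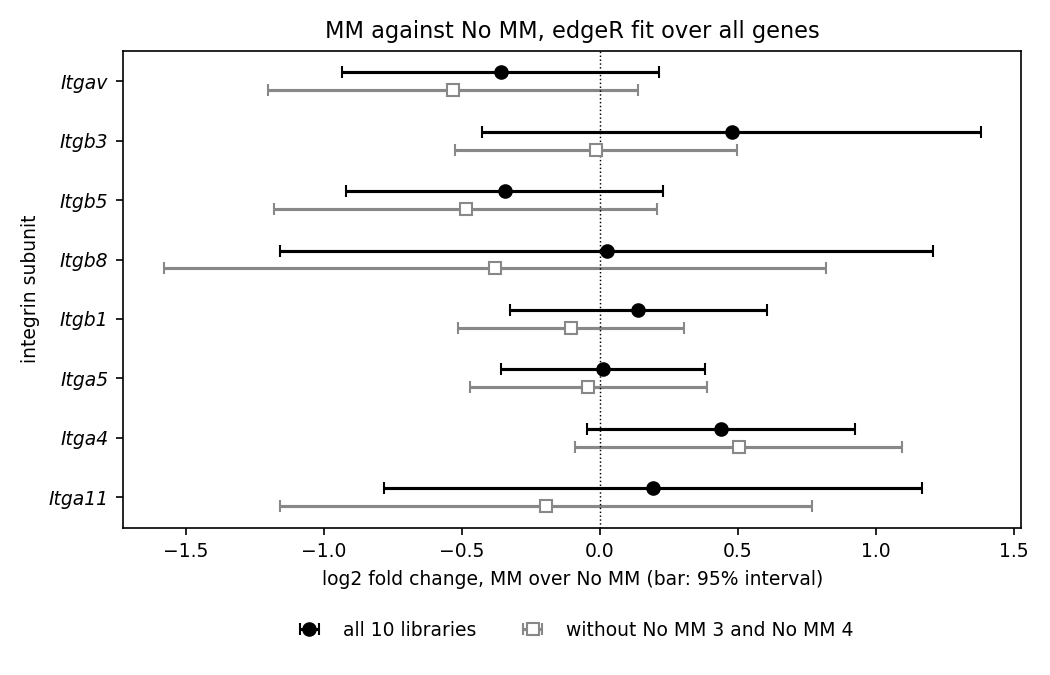
Log2 fold change of each subunit, MM over No MM (horizontal axis), with its 95% interval, from all 10 libraries (filled circles) and without No MM 3 and No MM 4 (open squares). Every interval crosses 0, and the estimate of Itgb3 goes from 0.48 to -0.01 without those 2 libraries.

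Itgav encodes the αV subunit itself and lies at chr2:83724397-83806916 on the plus strand. It had 87.2, 74.7, 80.4, 69.2 and 142 CPM in the 5 No MM libraries and 109, 65.2, 54.3, 48.9 and 76.1 CPM in the 5 MM libraries. In MM, 3 libraries lay under the lowest No MM library, while MM 6 exceeded all No MM libraries but 1. The means were 90.6 ± 29.3 in No MM and 70.6 ± 23.7 CPM in MM (SD, n = 5 each), a log2 fold change of -0.36 ± 0.261 (SE; edgeR adjusted p = 0.532). The 95% interval of that difference, -0.93 to 0.22, holds both a fold of 0.523 and a fold of 1.16. Without No MM 3 and No MM 4 the value was -0.53 (adjusted p = 0.643). Of the annotated exon bases of Itgav in GENCODE M21, 5.90% are shared with Gm13684 on the opposite strand, which the deposited table does not hold. Whether the counting used the strand is not given in the sources used here.

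Itgb5 encodes a β subunit known to pair with αV only and lies at chr16:33829665-33949153 on the plus strand. Its level was 286, 161, 184, 154 and 183 CPM in No MM and 239, 168, 128, 104 and 123 CPM in MM. As with Itgav, 3 MM libraries were under the lowest No MM library and MM 6 was the highest of the MM group. Its means were 193 ± 53.2 and 152 ± 53.6 CPM (SD, n = 5 each), and its log2 fold change was -0.35 ± 0.260 (SE; adjusted p = 0.548; 95% interval -0.92 to 0.23). With all 10 libraries the exact permutation p of the log2 CPM difference was 0.214 for Itgav and 0.206 for Itgb5. When MM 6 was left out, the differences became -0.54 and -0.55, each at an exact permutation p of 0.0476. MM 6 was the highest MM library for both genes, so leaving it out had to widen the differences. Leaving out any other single mouse gave exact permutation p-values from 0.190 to 0.429 for Itgav and 0.159 to 0.413 for Itgb5. In MM 6 the summed osteoblast markers were the highest of all libraries, at 47471 CPM, and their part in these values was not tested.

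Itgb3 encodes the β subunit of αVβ3, and also of the platelet receptor αIIbβ3, and lies at chr11:104608000-104670476 on the plus strand. Its level was 415, 395, 75.1, 155 and 317 CPM in No MM and 314, 363, 294, 495 and 424 CPM in MM. The lowest values were those of No MM 3 and No MM 4, at 75.1 and 155 CPM, and all of the other 8 libraries lay at 294 CPM or higher. The group means were 272 ± 150 and 378 ± 82.7 CPM (SD, n = 5 each), a log2 fold change of 0.48 ± 0.410 (SE; adjusted p = 0.607). Without No MM 3 and No MM 4 the log2 fold change was -0.01 (95% interval -0.52 to 0.50). The difference between the group means of Itgb3 thus rested on these 2 control libraries.

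Markers of 2 cell types known to carry β3 were low in the same libraries, as were those of 5 other cell types, and 7 of the 12 marker lists had a lower sum in both than in any of the other 8. Itga2b, the α partner of β3 on megakaryocytes and platelets, had 32.0 and 81.7 CPM there and 72.9 to 351 CPM in the other 8, of which 7 were above both. The 9 megakaryocyte and platelet markers summed to 147 and 407 CPM there and to 431 to 2058 CPM in the other 8, and the osteoclast markers, given above, separated in the same way. Per length, Itga2b stood at 0.487 to 0.888 times Itgb3 in No MM and at 0.391 to 1.19 times in MM. The part of megakaryocytes and osteoclasts in the Itgb3 level was not tested.

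Itgb1 encodes the β1 subunit and lies at chr8:128685654-128733200 on the plus strand. Its level was 501, 456, 323, 274 and 445 CPM in No MM and 528, 403, 471, 391 and 411 CPM in MM. Here too No MM 3 and No MM 4 were the lowest, and all of the other 8 libraries were at 391 CPM or more. The means were 400 ± 96.3 and 441 ± 57.8 CPM (SD, n = 5 each), with a log2 fold change of 0.14 ± 0.211 (SE; adjusted p = 0.783). Without those libraries it was -0.11 (adjusted p = 0.834), so the sign depended on them.

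Itga5 encodes the α5 subunit of the fibronectin receptor and lies at chr15:103344289-103366763 on the minus strand. It had 62.1, 42.9, 57.4, 45.6 and 58.0 CPM in No MM and 60.1, 48.1, 68.0, 45.4 and 46.3 CPM in MM. Its fold change was the closest to 0 of the 8, with 4 of 5 MM libraries inside the No MM range and means of 53.2 ± 8.44 and 53.6 ± 9.97 CPM (SD, n = 5 each). The log2 fold change was 0.01 ± 0.168 (SE; adjusted p = 0.983), and its 95% interval, the narrowest of the 8, allowed folds from 0.779 to 1.30. The log2 fold changes of Itga5, Itgb5 and Itgb8 without No MM 3 and No MM 4 were -0.04, -0.49 and -0.38.

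Itga4 encodes α4, which pairs with β1 or β7, binds VCAM1 and fibronectin and is known from leukocytes. It lies at chr2:79255426-79333123 on the plus strand and had 95.4, 138, 135, 149 and 140 CPM in No MM and 103, 170, 190, 195 and 233 CPM in MM. In MM, 4 libraries exceeded every No MM library, and MM 6, at 103 CPM, lay among the lowest. The means were 131 ± 20.9 and 178 ± 47.9 CPM (SD, n = 5 each), and the log2 fold change was 0.44 ± 0.221 (SE; adjusted p = 0.392; 95% interval -0.05 to 0.93). It was 0.50 without No MM 3 and No MM 4 (adjusted p = 0.643). The exact permutation test on log2 CPM gave p = 0.135 (two-sided, 5 against 5). When MM 6 was left out, the difference was 0.59 at an exact permutation p of 0.0159, the smallest that 4 against 5 allows. MM 6 was the only MM library not above every No MM library, so leaving it out had to give this p. Leaving out any other single mouse gave exact permutation p-values from 0.111 to 0.270 for Itga4. Of its annotated exon bases in GENCODE M21, 8.04% are shared with Cerkl on the opposite strand, a gene with a mean of 178 reads, and whether the counting used the strand is not given in the sources used here.

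Itga11, the α subunit of a collagen receptor of mesenchymal cells (chr9:62677826-62783982, plus strand), ranged from 8.20 to 31.9 CPM in No MM and from 13.6 to 53.6 CPM in MM, with the lowest value in No MM 4 and the highest in MM 6. Its log2 fold change was 0.19 ± 0.442 (SE; adjusted p = 0.864) and -0.20 without No MM 3 and No MM 4. Itgb8 (chr12:119158022-119238802, minus strand) ranged from 0.327 to 2.57 CPM in No MM and from 0.756 to 1.27 CPM in MM, where 3 reads corresponded to 0.0709 to 0.114 CPM. All 5 MM values of Itgb8 lay inside the No MM range, and its log2 fold change of 0.02 had a 95% interval from -1.16 to 1.21. That interval does not exclude a rise of Itgb8 by up to 2.31-fold.

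**Figure D3:**
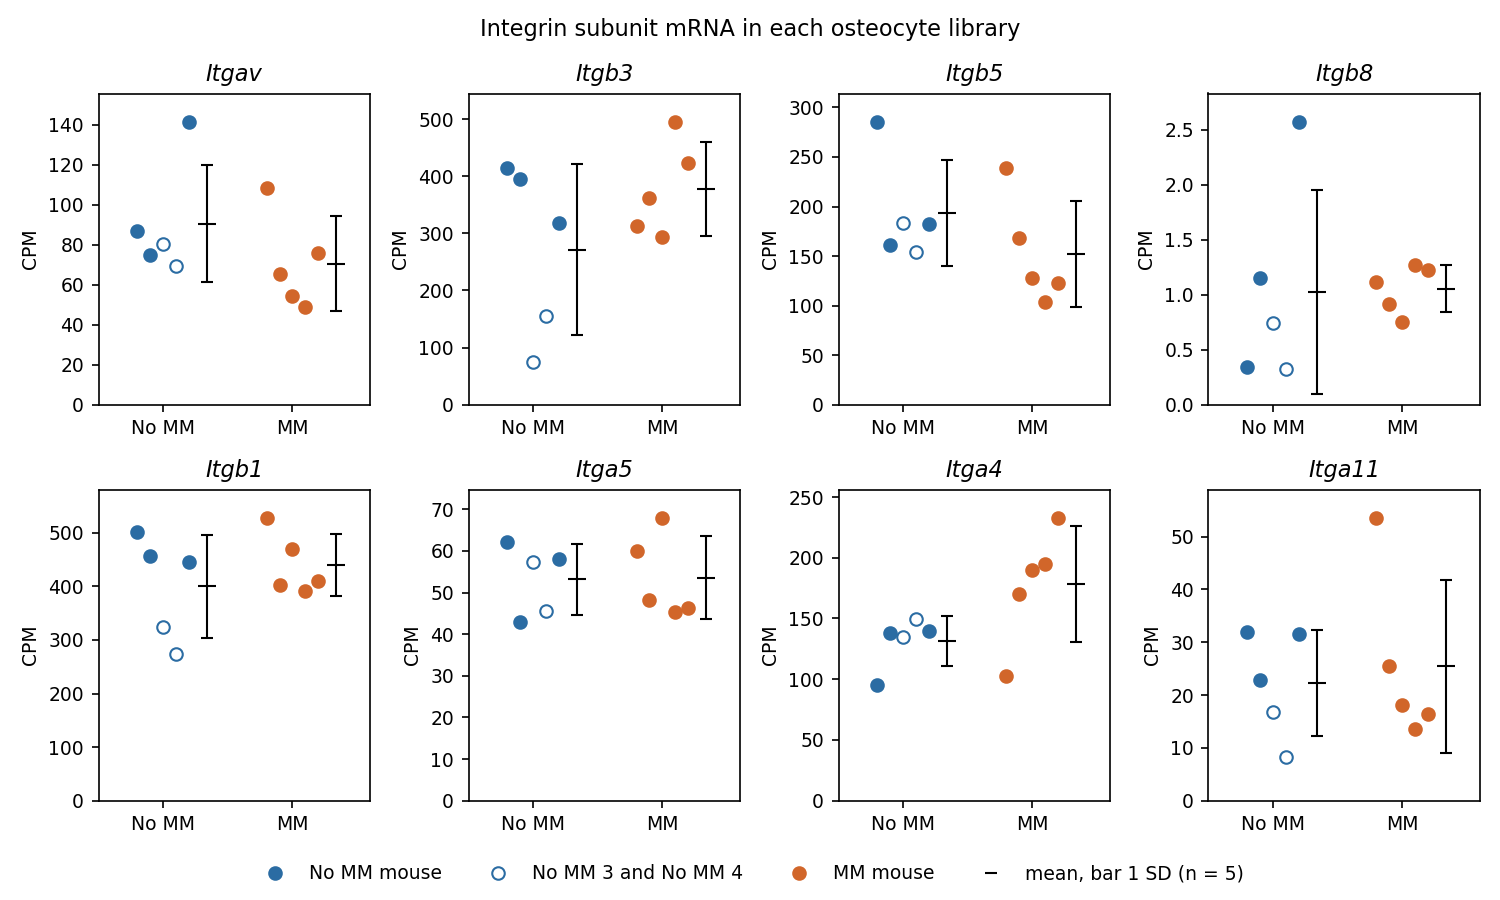
CPM of the 8 subunits in each library (vertical axis from 0), No MM in blue with No MM 3 and No MM 4 as open points, MM in orange, and the mean with a bar of 1 SD (n = 5). The 2 open points lie under all other points for Itgb3 and Itgb1, and 4 of 5 MM points lie above every No MM point for Itga4.

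An integrin needs both subunits, so the balance of known partners was compared as 7 ratios of CPM per kilobase within each library, which do not depend on library scaling. The Itgb3/Itgav ratio was 5.81, 6.45, 1.14, 2.73 and 2.73 in No MM and 3.52, 6.78, 6.60, 12.4 and 6.79 in MM. All 5 MM values were above the No MM median of 2.73 and 4 of them were above every No MM value. The mean of the log2 ratios was 1.08 higher in MM, a fold of 2.11 (exact permutation p = 0.0476, and 0.222 after Benjamini-Hochberg adjustment over the 7 ratios). Without No MM 3 and No MM 4 the log2 difference was 0.51 (exact permutation p = 0.214, 3 against 5), and 4 of 5 MM values exceeded the No MM median of 5.81. Since β3 also pairs with αIIb, and Itga2b was at 45.4 CPM per kilobase against 11.4 for Itgav, this ratio does not describe αVβ3 alone. The summed megakaryocyte and platelet markers had medians of 542 CPM in No MM and 1020 CPM in MM, with overlapping groups. Their part in this ratio was not tested.

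The Itgb1/Itgav ratio was 10.6, 11.3, 7.44, 7.33 and 5.82 in No MM and 8.99, 11.4, 16.0, 14.8 and 9.98 in MM. All 5 MM values were above the No MM median of 7.44, which is that of No MM 3, while the groups overlapped. The log2 difference was 0.53, a fold of 1.45 (exact permutation p = 0.0635, adjusted 0.222). It was 0.43 when No MM 3 and No MM 4 were left out (exact permutation p = 0.286), and 3 of 5 MM values then exceeded the No MM median of 10.6. Both ratios share Itgav as the denominator and are therefore not separate evidence.

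The other 5 ratios had exact permutation p-values from 0.175 to 0.976. The Itgb5/Itgav ratio had medians of 5.07 in No MM and 5.01 in MM, and its log2 difference of -0.00 was the smallest of the 7. For Itga5/Itgb1, the fibronectin receptor pair, the medians were 0.113 and 0.101, with 4 MM values between 0.0983 and 0.104. The medians of Itga4/Itgb1 were 0.122 and 0.165, those of Itga11/Itgb1 0.0399 and 0.0308, and those of Itgb8/Itgav 0.00776 and 0.0118. In that order, the log2 differences were 0.24, -0.01 and 0.82. Without No MM 3 and No MM 4 they were 0.58, -0.26 and 0.57, with exact permutation p-values of 0.179, 0.536 and 0.536. The difference of Itga4/Itgb1 was then the largest of the 7. None of the 7 ratios passed a threshold of 0.05 after adjustment.

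**Figure D4:**
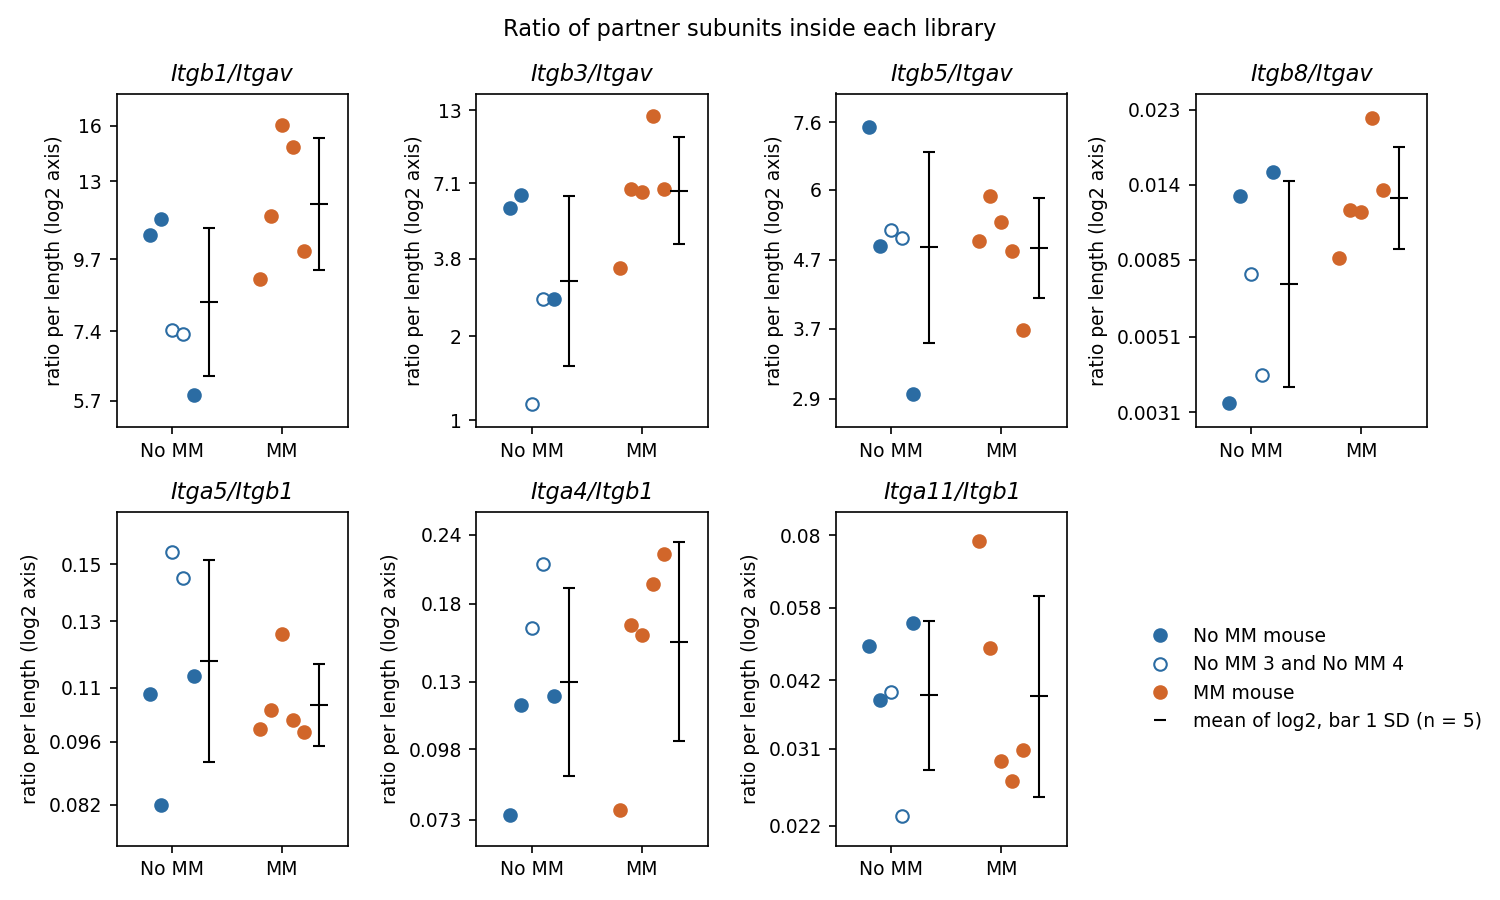
Ratio of partner subunits per gene length within each library (log2 axis), No MM in blue with No MM 3 and No MM 4 open, MM in orange, with the mean of log2 ratios and a bar of 1 SD (n = 5). All MM points of Itgb3/Itgav and Itgb1/Itgav lie above the No MM medians of 2.73 and 7.44, and the Itgb5/Itgav groups share a center near 5.

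As shares of the summed per-length level of the 5 β genes that can pair with αV, Itgb1 held 49.3% ± 3.40 in No MM and 50.1% ± 4.39 in MM (SD, n = 5 each). Itgb5 held 29.9% ± 6.35 in No MM and 21.04% ± 5.36 in MM, and Itgb3 held 20.5% ± 7.80 and 28.7% ± 7.40. The 3 No MM mice other than No MM 3 and No MM 4 had 25.5% ± 2.53 Itgb3 and 26.2% ± 4.82 Itgb5 (SD, n = 3), closer to MM. In MM 9, where Itgb3 was highest, the shares were 38.6% Itgb3 and 15.2% Itgb5, and in No MM 3 they were 8.23% and 37.7%. Itgb6 and Itgb8 together made up less than 1% in every library. Among the 4 α subunits described, Itgav held 29.4% ± 4.47 in No MM and 21.7% ± 5.56 in MM, and Itga4 held 31.9% ± 7.35 and 40.5% ± 11.7. In those 3 No MM mice the shares were 31.1% Itgav and 28.5% Itga4. These shares take no account of other α partners of β1 and β3, such as αIIb. They are a description and were not tested.

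The subunits differed in how much they varied from mouse to mouse. Itga5 had the lowest SD of log2 CPM over the 10 libraries, 0.233, and only 11.2% of tested genes had a smaller one. Itgb1 followed at 0.289, then Itga4 at 0.404, Itgb5 at 0.438 and Itgav at 0.450. Itga11, Itgb3 and Itgb8 varied most, with 0.753, 0.824 and 0.828, above 72.1% to 77.3% of genes. For Itgb3 the SD was 1.06 in No MM and 0.31 in MM, but 0.21 in No MM without No MM 3 and No MM 4, so its wide spread was that of these 2 libraries. The low counts of Itgb8 add counting error to its spread.

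**Figure D5:**
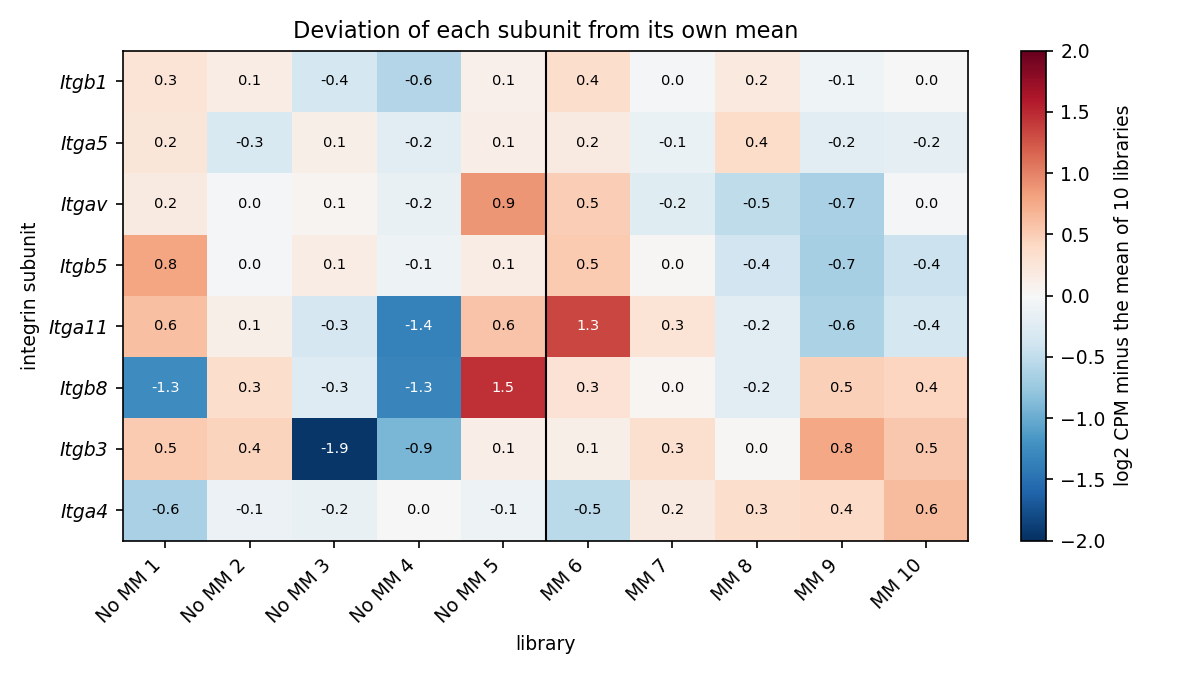
Log2 CPM of each subunit (rows) in each library (columns) minus its own mean over 10 libraries, from blue (lower) to red (higher), with a line between No MM and MM. Itgb3 in No MM 3 is the lowest cell (-1.95), and Itgav and Itgb5 both go from positive in MM 6 (0.50 and 0.53) to negative in MM 9 (-0.66 and -0.67).

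Likeness between genes was measured as the root mean square difference of log2 CPM over the 10 libraries after each gene was centered on its own mean. Of all pairs among the 8, Itga5 and Itgb1 were the most alike, at 0.262, and Itgav and Itgb5 came next, at 0.343. Both pairs are known heterodimers, shown above with their promoters. Without No MM 3 and No MM 4 the distances were 0.168 and 0.381, and other pairs, such as Itgb5 and Itga11 at 0.281, were then closer than Itgav and Itgb5. With all 10 libraries Itgb3 stood farther from its partner Itgav, at 0.928, and Itga4 and Itga11 were the least alike, at 0.991. These distances were 0.617 and 0.978 without No MM 3 and No MM 4, where Itgb5 and Itgb8 were the least alike, at 0.991. Genes of low spread are close to each other on this measure in any case, and no test was made.

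Among all tested genes whose SD was at least 50% of that of the subunit, the closest to Itgav was P4ha1, a subunit of collagen prolyl 4-hydroxylase, at 0.151, followed by Sar1a, a GTPase of vesicle export from the endoplasmic reticulum, and Fkbp14. The closest to Itgb5 were Ext2, an enzyme of heparan sulfate synthesis, at 0.107, then Npc2 and Ier5l. For Itga5 they were the metalloprotease gene Adam15 (0.114), the mechanosensitive channel gene Piezo1 (0.116) and Dnase1l1, and for Itgb1 they were Cdk20, Lemd2 and Tmem110 (0.0734 to 0.101). Itgb3 was followed most closely by Garem (0.155), Slc22a23 and Abcb9, Itga4 by Vps13a (0.112), Sass6 and C2cd5, Itga11 by Fam149a (0.204), Cd200 and Pcdhb10, and Itgb8 by Enox1 (0.186), Adcy1 and Lrrc58. The order of these neighbors changed without the 2 immunoglobulin-rich libraries. P4ha1 then ranked 12 for Itgav, Lemd2 81 for Itgb1 and Garem 12 for Itgb3. Enox1 ranked 2 for Itgb8 and Vps13a 2 for Itga4. With all 10 libraries, 10200 to 16055 genes were compared per subunit. The distances went from 0.151 to 0.164 for P4ha1, from 0.0976 to 0.102 for Lemd2 and from 0.155 to 0.120 for Garem.

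The rest of the integrin system was counted in 5 lists. After adjustment edgeR called none of their genes, and 0% of all tested genes. Of the 14 other α subunits and 5 other β subunits, 0 passed an unadjusted p under 0.05, against 14.1% of all tested genes. The median log2 fold changes were 0.24 and 0.31 beside -0.03 over all genes. The leukocyte and platelet subunits with the highest levels per length had fold changes above 0 with wide errors, at 0.87 ± 0.481 for Itga2b, 0.66 ± 0.359 for Itgam and 0.59 ± 0.375 for Itgb2 (log2, SE). These values were 0.44, 0.23 and 0.17 without No MM 3 and No MM 4. Itgal, a subunit of lymphocytes, had -0.46 ± 0.301 and, without those libraries, 0.09.

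Of 29 tested ligands of αV and β1 integrins, 0 were higher and 2 were lower in MM at an unadjusted p under 0.05, where all genes gave 3.81% and 10.3%. The first was Mfge8, which bridges apoptotic cells to αVβ3 and αVβ5, with 112, 75.5, 625, 559 and 46.1 CPM in No MM and 79.8, 57.8, 32.6, 54.6 and 52.7 CPM in MM. Its high values were those of No MM 3 and No MM 4. Its log2 fold change of -2.35 ± 0.696 (SE; edgeR adjusted p = 0.315) became -0.51 without them (adjusted p = 0.650). The second was the basement membrane proteoglycan gene Hspg2, at -0.83 ± 0.334 with all libraries and -0.35 without them. The ligands with the highest levels per length, Col1a2, Spp1 (osteopontin) and Col1a1, had log2 fold changes of 0.14, 0.18 and 0.14 with adjusted p-values from 0.900 to 0.952, and of -0.55, -0.26 and -0.55 without No MM 3 and No MM 4.

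Of 28 tested activators, adaptors and kinases, 0 passed an unadjusted p under 0.05, against 14.1% of all tested genes. Their median log2 fold change was 0.22, beside -0.03 over all genes. The highest levels per length were those of Rap1b, a GTPase that drives integrin activation, Ilk, the integrin-linked kinase, and Fermt3, the kindlin of blood cells, with log2 fold changes of 0.61, -0.14 and 0.42, and of 0.30, -0.21 and 0.03 without No MM 3 and No MM 4. Of 19 inhibitors and traffic genes, 0 were higher and 2 were lower in MM at an unadjusted p under 0.05, a share near the 10.3% of all genes that were lower. Cd81, a tetraspanin, was at 214 ± 75.1 CPM in No MM and 127 ± 23.8 CPM in MM (SD, n = 5 each), and its log2 fold change of -0.76 was -0.40 without No MM 3 and No MM 4. Itgb1bp1 encodes a protein that binds the tail of β1 and restrains it, and its level was 33.7, 29.5, 31.2, 28.9 and 24.8 CPM in No MM and 22.8, 25.2, 25.1, 20.1 and 19.4 CPM in MM. The groups overlapped in a narrow range, since 2 MM libraries exceeded the lowest No MM library. Its log2 fold change, -0.40 ± 0.147 with all libraries (SE; edgeR adjusted p = 0.315), was -0.40 without No MM 3 and No MM 4 (adjusted p = 0.643).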

How the data were processed

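Osteocyte libraries of 10 mice, 5 in each group, were grouped by the disease state in the labels. The submitters' processing notes name FastQC 0.11.5 and STAR; the STAR version, counting program, strand setting, gene annotation and genome build are not given in the sources used here. The authors deposited whole-number read counts per gene and library for 22548 genes, without normalization. The authors deposited FPKM values and a size-factor-normalized signal beside them. The deposited log2 fold changes and p-values are comparisons made by the authors and were not used.

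The coordinates of 6 of the 8 integrin genes equal those in GENCODE M21 (GRCm38), as did 68.4% of the 22284 shared gene identifiers. Counts (31099174 to 39466332 per library) were filtered with filterByExpr, scaled by TMM and fitted with edgeR 4.0.16 (quasi-likelihood test, R 4.3.3) over 16186 genes, with Benjamini-Hochberg adjustment over all of them and calls at 0.05. The fit was tested on simulated data. Log2 CPM used a prior count of 2. Exact two-sided permutation tests covered the 252 assignments of 10 mice to 5 and 5 (smallest p 0.00794). Partner ratios were adjusted over 7. Floors of 3 counts and 95% intervals cover the error of these libraries only, and reads are not independent molecules. Named genes were the 8 subunits and, from each of the 5 lists, up to 5 genes with an unadjusted p under 0.05 and the 3 with the highest level per length, plus the 3 genes closest to each subunit. The members, lists and alternatives were chosen with earlier results of these data known. Of the listed genes, Fga and Fermt1 were not found by symbol, and 3 were matched by identifier to older symbols. Alternatives were DESeq2 1.42.0, other size factors (RLE, upper quartile), immunoglobulin genes removed, other count filters, an unadjusted threshold, deposited FPKM or unscaled reads in the ratios, 1 count added, each mouse left out, and No MM 3 and No MM 4 left out. GENCODE exon lengths for the ratios were added after seeing the data. Overlapping genes were taken from GENCODE M21. Promoters came from the RefSeq tables of GRCm38.p6.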

Additional observations from a re-analysis of the deposited data

Results flagged for a closer look

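Within each group of 5 mice, the highest or lowest library was compared with its nearest neighbor, as the gap divided by the range, for the 8 subunits and the 7 partner ratios. Of 30 sets tested, 4 had a library whose gap exceeded the critical value of 0.71. Chance alone gives about 1 in 20, or 1.5 sets, if the values are normally distributed. The gaps were taken on values before log2, and the ratios use the same 8 genes, so the sets are not independent. Itgav reached 141.6 CPM in No MM 5, with the next No MM library at 87.2 CPM. Itgb5 reached 285.5 CPM in No MM 1, with the next at 183.5 CPM. Itga4 was at 95.4 CPM in No MM 1, under the next lowest No MM library at 134.7 CPM. The Itga5/Itgb1 ratio was 0.126 in MM 8 and at most 0.104 in the other MM mice. The lowest Itga4 and the highest Itgb5 of the No MM group thus belong to the same mouse. No explanation was tested.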

How the results depend on the processing

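No paired analysis was possible because the mice are numbered 1 to 5 in No MM and 6 to 10 in MM and share no number. The study calls its differential analysis paired, but the labels used here name no pairs. No member was called by edgeR or DESeq2 after adjustment under any setting of the fit over all genes. DESeq2 called 32 genes higher and 192 lower in all, 1.34% of those with an adjusted p-value, and 2 of the ligands, Mfge8 (adjusted p = 0.0405) and Madcam1, a ligand of α4 integrins (log2 -5.97, adjusted p = 0.0235). Madcam1, named after its values were seen, had 598 and 998 reads in No MM 3 and No MM 4 and 0 to 8 in the other libraries. At an unadjusted p under 0.05, edgeR called 617 higher and 1664 lower genes, with 2 ligands and 2 inhibitors and traffic genes. Leaving out No MM 3 and No MM 4 turned the fitted log2 fold changes of Itga5 to -0.0418, Itgb1 to -0.11, Itgb3 to -0.0133, Itgb8 to -0.38 and Itga11 to -0.20, and the log2 CPM differences to -0.0402, -0.11, -0.0296, -0.00149 and -0.37. It also turned Itgb5/Itgav to 0.0388 and Itga5/Itgb1 to 0.0724 (log2), and Itgb3/Itgav lost its unadjusted call at 0.51. No other size factors, filter, added count or gene length turned the direction of a subunit or ratio.

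With 1 mouse left out, fitted log2 fold changes ran from -0.0905 to 0.0736 for Itga5, -0.20 to 0.70 for Itgb8 and -0.28 to 0.36 for Itga11. Log2 CPM differences ran from -0.54 to -0.19 for Itgav, -0.0845 to 0.0673 for Itga5, -0.55 to -0.22 for Itgb5, -0.16 to 0.34 for Itga11 and 0.30 to 0.59 for Itga4, and those of Itgav, Itgb5 and Itga4 passed 0.05 without MM 6 only. Log2 differences of the ratios ran from 0.41 to 0.65 for Itgb1/Itgav, which passed 0.05 without No MM 1 or No MM 2 (exact permutation p = 0.0476), 0.71 to 1.33 for Itgb3/Itgav, -0.19 to 0.15 for Itgb5/Itgav and -0.25 to 0.13 for Itga11/Itgb1. Itgb3/Itgav lost its call without No MM 3, No MM 4, No MM 5, MM 7, MM 8, MM 9 or MM 10, with exact permutation p-values from 0.0794 to 0.0952. The causes were not tested. With 5 mice a group, the 95% intervals do not exclude folds from 0.779 to 1.30 for Itga5, the narrowest, and from 0.745 to 2.60 for Itgb3, and the 9 reads of Itgb8 in the libraries with fewest add counting error.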

Other observations

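Per length, Itgb2l and Itgb7 were also among the more abundant integrin subunits of these libraries, at 42.2 and 24.3 CPM per kilobase. Itgb7, which pairs with α4, had 58.1 ± 28.9 CPM in No MM and 71.9 ± 16.9 CPM in MM (SD, n = 5 each), with an edgeR log2 fold change of 0.31 that was -0.09 without No MM 3 and No MM 4. Itgb2l resembles Itgb2, and how reads were split between similar genes is not given in the sources used here. Flna and Cd9, an actin crosslinker that binds β integrin tails and a tetraspanin, had log2 fold changes of 0.46 and 0.19 (edgeR), and 0.08 and -0.11 without No MM 3 and No MM 4.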
